A study of Mus musculus with 2 samples.

Results

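A total of 139 stromal cells carrying RNA for the cytokine Tnfsf11 were examined among 27718 cell barcodes from mouse mandibular lymph nodes, 49 after subarachnoid haemorrhage (SAH) and 90 after a sham operation. They were chosen by raw counts of unique molecular identifiers (UMIs, tags that mark single RNA molecules). Each had 500 or more detected genes, no more than 10% of its UMIs from mitochondrial genes, no UMI of the endothelial genes Pecam1 and Prox1, at least 3 UMIs of the fibroblast genes Dcn and Col3a1 together, and at least 1 UMI of Tnfsf11. Cells with any UMI of Pi16, a marker of fibroblasts around vessels, or with 3 or more UMIs of Ccl19, a chemokine of T-zone reticular cells, were left out. They are called Tnfsf11-positive Ccl19-low cells here, and they made up 139 of 3163 cells of fibroblastic stroma. The levels of these 7 genes therefore follow from the choice and are given only as a description.

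The SAH library was prepared from mice in which SAH was produced with the animal's own blood, and the sham library from mice that had a sham operation. Both pooled mandibular nodes of 20 mice taken at 24 h. Cells bearing CD45, a marker of leukocytes, were depleted, and anti-CD31 and anti-podoplanin beads were then used to pull out the cells that were sequenced, which the labels call lymphatic endothelial, so the stroma seen here is the part that passed this enrichment. Strain, sex and age of the mice are not given in the labels. With 1 library per group there is no replicate check. No test was made, and all intervals are exact 95% intervals that cover counting error only.

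Marginal reticular cells are fibroblastic cells under the capsule of a lymph node, next to the sinus and the B-cell follicles. Their usual markers are RANK ligand, encoded by Tnfsf11, the B-cell attracting chemokine Cxcl13 and the adhesion molecule Madcam1. RANK ligand binds the receptor RANK, encoded by Tnfrsf11a, on sinus lymphatic endothelium and macrophages, and is blocked by the decoy receptor osteoprotegerin, encoded by Tnfrsf11b. Lymphotoxin signals through Ltbr and NF-kB sustain this programme and that of other reticular cells.

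Sequencing depth was higher in the SAH cells. The 49 SAH cells held 305653 UMIs with a median of 5987 per cell, and the 90 sham cells held 424521 UMIs with a median of 4353.5. Mitochondrial UMIs had medians of 4.81% in SAH cells and 4.87% in sham cells. No barcode was shared between the libraries among these cells or among all stroma, although 76 were shared among all deposited barcodes. Haemoglobin took 2.79% of the UMIs of the SAH cells (8521 UMIs) and 6 UMIs in the sham cells. In the SAH library, 2 cells with 4545 and 3970 haemoglobin UMIs held nearly all of it. Levels are given as CPM, the UMIs of a gene summed over the cells of a group and scaled to a common total for every group.

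The label of marginal reticular cell was only partly borne out by the markers. Cxcl13, which the choice did not use, reached 9615 CPM in SAH cells and 3401 CPM in sham cells, and at least 1 UMI of it was found in 87.8% of SAH cells and 75.6% of sham cells. Lum, a small proteoglycan of fibroblasts, reached 887 CPM in SAH cells and 1131 CPM in sham cells. Dcn, part of the choice, stood at 14543 CPM in SAH cells and 15962 CPM in sham cells. Madcam1, in contrast, gave few UMIs, with 3 UMIs in SAH cells and 2 UMIs in sham cells, or 9.82 and 4.71 CPM. Most stromal Madcam1 UMIs lay in cells that had no Tnfsf11 UMI and at least 3 Ccl19 UMIs, namely 257 of 291 UMIs (88.3%) in the SAH library and 170 of 204 UMIs (83.3%) in the sham library. Those cells were also a large part of stroma. They held 6638671 of 10764781 stromal UMIs of all genes in the SAH library and 3477618 of 7936552 in the sham library. A Madcam1 UMI was found in 4.08% of SAH cells and 2.22% of sham cells, beside 2.64% and 1.84% of blood endothelial cells. Bst1, an ectoenzyme found on reticular cells of lymphoid tissue, was low as well against all other stroma. Bst1 had 88.3 CPM in SAH cells and 66.0 CPM in sham cells, against 218 CPM and 188.5 CPM in all other stroma of the same libraries, most of which bore Ccl19. Against stroma without Tnfsf11 and under 3 Ccl19 UMIs, which held 37.1 CPM in the SAH library and 26.0 CPM in the sham library, Bst1 was 2.38-fold (1.43 to 3.87) and 2.54-fold (1.55 to 4.07) higher, so its direction depends on the cells it is set against. Madcam1 had 5.82 and 3.31 CPM in that stroma. Ccl20, a chemokine of marginal reticular cells, had 0 UMIs in SAH cells and 8 UMIs in sham cells, counts too small to set against other stroma. The cells are therefore described by their rule rather than by the name.

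Markers of other stromal cells were present, and those of most leukocytes were scarce. The 4 markers of Lepr and Ptn reticular cells were all detected, with a sum of 9992 CPM in SAH cells and 13448 CPM in sham cells, beside 8437 and 8338 CPM in stroma without Tnfsf11 and under 3 Ccl19 UMIs. The T-zone reticular list summed to 2804 CPM in SAH cells and 2824 CPM in sham cells and the lymphatic endothelial list to 2447 and 2449.8 CPM, and most of both sums was Ccl21a, with Prox1 at 0 by choice. The erythroid list summed to 27953 CPM in SAH cells and 14.1 CPM in sham cells. All 5 measured T- or NK-cell markers and Ptprc, which encodes CD45, were at 0 in both groups. The 5 B-cell markers gave 1 UMI in each group, and the neutrophil and macrophage lists summed to at most 14.1 CPM. The 4 measured markers of follicular dendritic cells, the stroma of the follicle centre, summed to 19.6 CPM in SAH cells and 25.9 CPM in sham cells, with 9 of 11 sham Cr2 UMIs (81.8%) in 1 cell. Of 8 mural cell markers 7 were detected in each group, with a sum of 1443 CPM in SAH cells and 1875 CPM in sham cells and Cspg4 at 0 in both. The 6 salivary epithelial markers summed to 186 CPM in SAH cells and 181 CPM in sham cells, with Epcam, Krt8, Krt18 and Aqp5 at 0.

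Tnfsf11 itself, encoded on chromosome 14 from 78277445 to 78308043 on the minus strand (mm10), was sparse per cell. The SAH cells held 116 UMIs of it, with 1 UMI in 26 cells, 2 UMIs in 12 cells, 3 or more in 11 cells and a maximum of 16. The sham cells held 198 UMIs, with 1 UMI in 51 cells, 2 UMIs in 16 cells, 3 or more in 23 cells and a maximum of 10. Levels were 379.5 CPM in SAH cells and 466 CPM in sham cells, 0.814-fold with an interval of 0.641 to 1.03. In blood endothelial cells, which should lack the gene, 0.634% of SAH cells and 0.453% of sham cells had a Tnfsf11 UMI at median depths of 4229 and 4558.5 UMIs, far below the 18.8% and 21.0% of all fibroblastic stroma at median depths of 6336 and 4767.5 UMIs.

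The promoters of the 3 genes that bear on the name are shown because Tnfsf11 and Cxcl13 were detected in these cells while Madcam1, their usual partner, gave few UMIs. The 250 bases before each RefSeq transcription start (build GRCm38.p6) are printed with matches to simple motifs in capitals. The motifs were TTNNGNAA for C/EBP factors, GGGANNNNCC for NF-kB, TTCNNNGAA for STAT factors and GAAANNGAAA for interferon-responsive elements, each searched on both strands, with overlapping matches printed as 1 run. Of 32851 RefSeq promoters 36.8% held the C/EBP letters, 17.6% the NF-kB letters, 7.02% the STAT letters and 2.98% the interferon letters, so a match is a description and not a binding site.
Tnfsf11 (chr14:78308044-78308293, minus strand): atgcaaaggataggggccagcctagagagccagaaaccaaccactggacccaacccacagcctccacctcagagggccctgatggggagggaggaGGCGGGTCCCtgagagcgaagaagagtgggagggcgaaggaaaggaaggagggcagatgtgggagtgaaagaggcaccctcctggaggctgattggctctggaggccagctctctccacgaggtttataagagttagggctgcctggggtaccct
Cxcl13 (chr5:95956689-95956938, plus strand): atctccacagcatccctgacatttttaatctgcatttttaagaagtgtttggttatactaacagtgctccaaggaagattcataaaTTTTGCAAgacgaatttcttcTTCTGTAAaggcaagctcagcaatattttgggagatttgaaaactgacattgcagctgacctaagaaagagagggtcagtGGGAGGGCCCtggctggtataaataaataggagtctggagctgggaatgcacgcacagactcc
Madcam1 (chr10:79664309-79664558, plus strand): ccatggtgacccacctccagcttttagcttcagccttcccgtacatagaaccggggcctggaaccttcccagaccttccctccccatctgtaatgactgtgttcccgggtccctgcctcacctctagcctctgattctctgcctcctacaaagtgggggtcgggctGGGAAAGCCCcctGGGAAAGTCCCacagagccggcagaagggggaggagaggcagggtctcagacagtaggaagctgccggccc
The Tnfsf11 window held 1 NF-kB match that began 155 bases before the start. The Cxcl13 window held C/EBP matches at 164 and 143 bases and an NF-kB match at 63 bases before the start. The Madcam1 window, of a gene with few UMIs here, held NF-kB matches at 84, 71 and 70 bases, the last pair overlapping.

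The cells were a smaller share of stroma in the SAH library. They made up 49 of 1631 stromal cells (3.004%, interval 2.23 to 3.95%) after SAH and 90 of 1532 (5.87%, 4.75 to 7.17%) after the sham operation. All Tnfsf11-positive stroma differed less, with 307 of 1631 cells (18.8%, 17.0 to 20.8%) in the SAH library and 322 of 1532 (21.0%, 19.0 to 23.1%) in the sham library. The Ccl19 limit divided these cells differently in the 2 libraries. At least 3 Ccl19 UMIs were found in 255 of the 307 SAH cells (83.1%) and 231 of the 322 sham cells (71.7%), and in 72.0% of all stroma after SAH against 53.4% after the sham operation. Stroma was also sequenced more deeply in the SAH library, and the part of depth in the share was not tested apart from the alternatives. The SAH share was 0.511 of the sham share. With the Ccl19 limit scaled to depth the ratio was 0.709, and with no Ccl19 limit it was 0.890, both alternatives chosen after seeing the data.

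**Figure D1:**
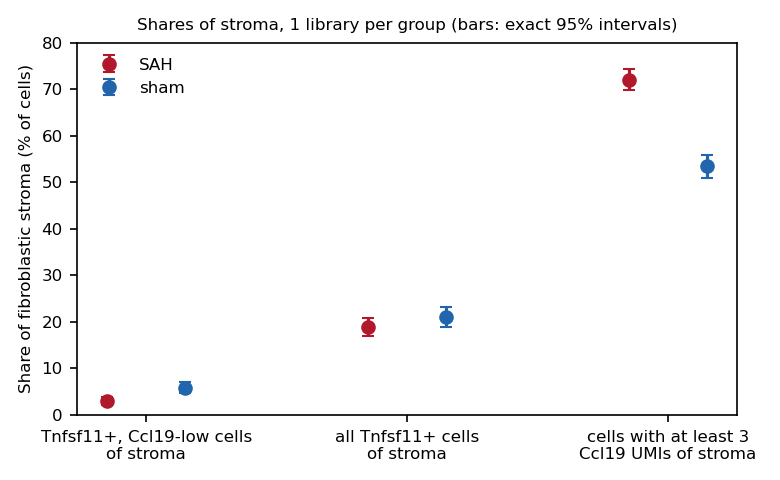
Share of fibroblastic stroma, in percent of cells, made up by Tnfsf11-positive Ccl19-low cells, by all Tnfsf11-positive cells and by cells with at least 3 Ccl19 UMIs, in the SAH library (red, left) and the sham library (blue, right), with exact 95% intervals as bars. The Ccl19-low cells stood at 3.004% and 5.87%, all Tnfsf11-positive cells at 18.8% and 21.0%, and Ccl19-bearing cells at 72.0% and 53.4%.

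Tnfsf11-positive stroma lay on both sides of the Ccl19 limit. The SAH cells with 2 and with 3 Ccl19 UMIs had median depths of 5998 and 6340.0 UMIs, and the sham cells 4622 and 4083 UMIs. In the SAH library 23 cells had 2 Ccl19 UMIs and 12 had 3, with Cxcl13 at 7567 CPM in those just inside and 13301 CPM in those just outside. In the sham library 30 cells had 2 Ccl19 UMIs and 30 had 3, with Cxcl13 at 2596 CPM inside and 1731 CPM outside. Only 19.1% of stromal Tnfsf11 UMIs in the SAH library and 23.4% in the sham library came from the Ccl19-low cells, and 80.4% and 76.4% came from Tnfsf11-positive cells with at least 3 Ccl19 UMIs. At the fibroblast limit, 0 SAH cells and 1 sham cell had 3 to 5 UMIs of Dcn and Col3a1 together, and 2 SAH cells and 0 sham cells were left out at 1 or 2.

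Against all other stroma of the same library, the genes with the highest ratios included several secreted factors and transporters. These ratios follow from the choice by Tnfsf11 and Ccl19 and are a description. Of 1256 genes at 100 CPM or more in one of the populations, 40 (3.18%) were at least 1.5-fold higher in both libraries and 47 (3.74%) at least 1.5-fold lower. Stc1, which encodes the secreted glycoprotein stanniocalcin, reached 654 CPM in SAH cells and 551 CPM in sham cells, against 108 and 208 CPM in the other stroma. Ptn, the growth factor pleiotrophin, reached 723 CPM in SAH cells and 1218 CPM in sham cells, against 245 and 485 CPM in the other stroma. Enpp2, which encodes autotaxin, the enzyme that makes lysophosphatidic acid, reached 2905 CPM in SAH cells and 2363 CPM in sham cells, against 1018 and 970.2 CPM in the other stroma. It was found in all 49 SAH cells and in 96.7% of the sham cells.

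Other genes of this group were the Wnt agonist Rspo3 (206 CPM in SAH cells and 228 CPM in sham cells), the sphingosine-phosphate transporter Spns2 (337 and 342 CPM), the potassium channel gene Kcnj8 (334 and 233 CPM) and the taurine transporter Slc6a6 (213 and 240.3 CPM). Clec14a, a C-type lectin better known from endothelium, reached 278 CPM in SAH cells and 151 CPM in sham cells while Pecam1 was at 0 by choice. Blood endothelial cells held more Clec14a, with 398 CPM in the SAH library and 419.6 CPM in the sham library. They also held more Slc6a6, with 370 CPM in the SAH library and 343 CPM in the sham library. The myo-inositol transporter gene Slc5a3 lies inside the span of Mrps6 on chromosome 16, so its ratios of 3.99 in the SAH library and 3.48 in the sham library cannot be separated from those of its neighbour, which were 2.29 and 2.37. Hlf, Chst15, Nrp2, Sned1, Ano1, Ncoa7, Scara5 and Ckb were also among the 20 highest, at 1.70- to 2.58-fold the level of other stroma. Against stroma without Tnfsf11 and under 3 Ccl19 UMIs, the SAH intervals of Hlf, Chst15, Ncoa7 and Scara5 included 1. Their sham intervals lay above 1. Scara5 was 0.931-fold (0.763 to 1.129) there in the SAH library and 1.79-fold (1.48 to 2.16) in the sham library.

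Among the lower genes, Ccl21a, a chemokine that guides T cells and dendritic cells, had 2431 CPM in SAH cells and 2429 CPM in sham cells, against 16125 and 10990 CPM in the other stroma. Its counts can be shared with near-identical Ccl21 copies. Stroma without Tnfsf11 and under 3 Ccl19 UMIs held less Ccl21a, with 1401 CPM in the SAH library and 1446 CPM in the sham library. Against that stroma Ccl21a was 1.735-fold (1.592 to 1.889) higher in SAH cells and 1.679-fold (1.563 to 1.803) higher in sham cells. Its direction therefore depends on the cells it is set against. Fibronectin, encoded by Fn1, had 62.2 CPM in SAH cells and 188 CPM in sham cells, against 333 and 724 CPM. Fmod, Bst1, Bst2, Lpar1, Igfbp5, S100a11, Smpdl3a and Serpina3g completed the 10 lowest, at 0.270- to 0.428-fold. Against stroma without Tnfsf11 and under 3 Ccl19 UMIs, Fn1, Igfbp5, S100a11, Smpdl3a and Bst2 stayed lower in both libraries. Bst1 was higher by the values given before. Serpina3g was higher in value in both libraries, but its SAH interval (0.794 to 2.68) included 1. The intervals of Fmod and Lpar1 included 1 in both libraries.

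**Figure D2:**
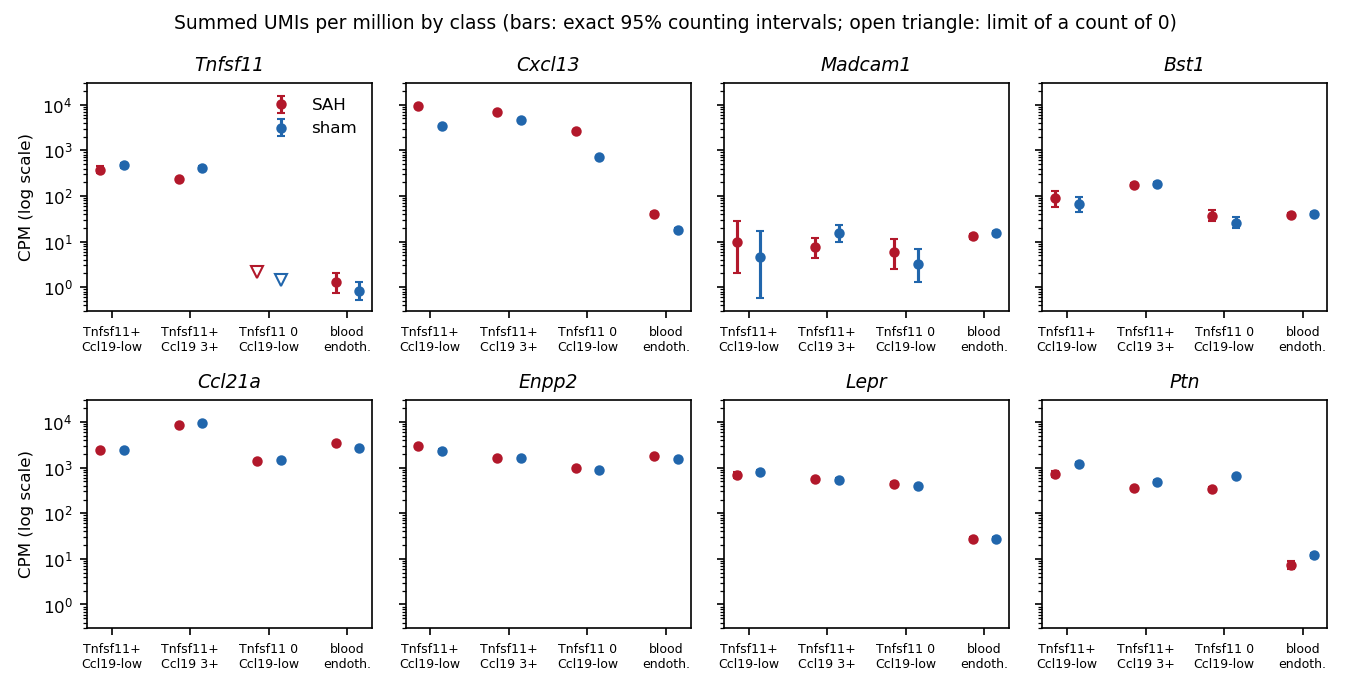
CPM (log scale) of 8 genes in Tnfsf11-positive Ccl19-low cells, Tnfsf11-positive stroma with at least 3 Ccl19 UMIs, stroma with neither, and blood endothelial cells, for SAH (red, left) and sham (blue, right), with exact 95% counting intervals and open triangles at the limit of a count of 0. Madcam1 was at most 15.4 CPM in these 4 populations, and Enpp2 was highest in the Ccl19-low cells at 2905 and 2363 CPM.

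The Tnfsf11-positive cells with at least 3 Ccl19 UMIs, the population most like them, shared part of this profile. Cxcl13 was at 6932 CPM there in the SAH library and 4679 CPM in the sham library, and Enpp2 at 1629.6 and 1624 CPM. Ptn stood at 354 and 489 CPM in that population. Lepr, the leptin receptor, reached 684 CPM in SAH and 815 CPM in sham Ccl19-low cells, and 568 and 541 CPM in the Ccl19-bearing ones. In stroma with no Tnfsf11 UMI and under 3 Ccl19 UMIs, Cxcl13 stood at 2709 CPM in the SAH library and 712 CPM in the sham library.

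Few of the 17 genes of a marginal reticular programme differed by much between the libraries. At least 10 UMIs were counted for 13 of them, of which 3 were at least 1.5-fold higher in SAH cells (Cxcl13, Pdpn and Ch25h) and 1 at least 1.5-fold lower (Npy1r). Over all 7386 genes with at least 10 UMIs, 15.8% were that much higher and 24.0% that much lower. The median log2 fold of SAH over sham cells was -0.20 for the list and -0.09 over all such genes. The Ch25h difference came mostly from 1 SAH cell, which held 87.5% of its 16 UMIs, and the intervals of Pdpn (0.782 to 3.70) and Ch25h (0.948 to 5.48) included 1. Npy1r, a neuropeptide Y receptor, had 42.5 CPM in SAH cells and 106.0 CPM in sham cells. Vcam1, an adhesion molecule of stroma, had 435 and 518 CPM, Icam1 65.4 and 51.8 CPM, Il7 42.5 and 54.2 CPM, Ltbr 42.5 and 49.5 CPM and Tnfrsf1a 160.3 and 238 CPM, SAH given before sham. Bmp2 and Bmp4 had at most 5 UMIs in a group, and Fmod had 11 UMIs in SAH cells and 20 in sham cells.

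Cxcl13 was the gene of this programme with the largest count. It lies on chromosome 5 from 95956951 to 95961068 on the plus strand and its level was 2.83-fold higher in SAH cells (interval 2.65 to 3.01). Per cell it ranged from 0 to 876 UMIs with a median of 14 in SAH cells, and from 0 to 367 UMIs with a median of 3 in sham cells, so the groups overlapped. After thinning to 2000 UMIs, 40 of 48 SAH cells (83.3%) and 50 of 86 sham cells (58.1%) had a Cxcl13 UMI, against 7.59% and 2.82% of blood endothelial cells. One SAH cell held 29.8% of the Cxcl13 UMIs of its group and one sham cell held 25.4%, and without the 10 cells richest in it in each library the log2 fold was still 1.44. Other stroma was higher after SAH as well, at 3557 CPM against 1617 CPM in the sham library. With 1 or 2 Ccl19 UMIs, 41 SAH cells had 10701 CPM of Cxcl13 and 59 sham cells had 2842 CPM. With 0 Ccl19 UMIs the order turned, with 3238 CPM in only 8 SAH cells and 4486 CPM in 31 sham cells. Of the 648 Cxcl13 UMIs in these 31 sham cells, 367 came from 1 cell. The 8 SAH cells included a haemoglobin-rich cell with 6796 of their 44469 UMIs, which lowers the CPM of other genes there. The turned order therefore rests on few cells, and the part of Ccl19 counts in the difference was not tested.

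The RANK and lymphotoxin axis around Tnfsf11 was only partly detected in these cells. The receptors Ltbr and Tnfrsf1a were found at the levels above. Tnfrsf11b, Lta, Tnf, Cd40 and Cd40lg had 0 UMIs in both groups, and Tnfrsf11a had 0 UMIs in SAH cells and 1 UMI in sham cells. Of 6 list genes with at least 10 UMIs, 0 were 1.5-fold higher in SAH cells and 1 was that much lower, the TNF receptor Tnfrsf1b with 8 UMIs in SAH cells and 20 in sham cells, named after its value was seen. Tnfsf13b, which encodes the B-cell survival factor BAFF, had 258.5 CPM in SAH cells and 226 CPM in sham cells. Among 8 B-cell niche factors with at least 10 UMIs, Cxcl13 and Il34 were at least 1.5-fold higher. Il34 had only 7 UMIs in SAH cells and 4 in sham cells and was named after its value was seen. The syndecan gene Sdc4 was lower, at 105 CPM in SAH cells and 198 CPM in sham cells. The counts of both lists are too small to set against the shares over all genes of 15.8% higher and 24.0% lower.

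Over the 3198 genes at 50 CPM or more in either group, 400 (12.5%) were at least 1.5-fold higher and 690 (21.6%) at least 1.5-fold lower in SAH cells. In the more numerous other stroma the shares were 6.10% and 7.50% of 3001 genes, where the counts behind each value were larger. Of the 1090 calls, 36.7% were on the higher side. That split moved to 56.5% when TMM factors replaced the totals, to 50.5% with median-of-ratios factors, to 47.7% with mitochondrial and ribosomal genes left out of the totals, and to 51.0% when cells were thinned, so no excess of lower genes is read from it. TMM raised each log2 fold by 0.12. Without the 2 haemoglobin-rich cells 42.0% of the calls were on the higher side.

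Among the lists examined, acute phase genes had the highest median fold. These genes encode proteins that the liver, and locally stroma, secrete in inflammation. Of 7 with at least 10 UMIs, 4 were at least 1.5-fold higher in SAH cells and 0 lower, with a median log2 fold of 2.46, beside 1.61 for the same genes in other stroma. Over all genes with at least 10 UMIs, 15.8% were that much higher and 24.0% that much lower. Saa3, a serum amyloid A gene on chromosome 7 from 46711998 to 46715700, minus strand, had 4394 CPM in SAH cells and 292 CPM in sham cells, a 15.0-fold difference (12.5 to 18.2). At least 1 Saa3 UMI was found in 67.3% of SAH cells and 5.56% of sham cells. After thinning the shares were 52.1% of 48 SAH cells and 3.49% of 86 sham cells, against 6.92% and 0.233% of blood endothelial cells. The 1343 SAH UMIs were spread over 33 cells, with 25.2% in the richest one, and the 124 sham UMIs over 5 cells.

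Lcn2, which encodes the iron-scavenging protein lipocalin 2, had 379.5 CPM in SAH cells and 40.0 CPM in sham cells, 9.48-fold (5.67 to 16.8), and 64.7% of the 17 sham UMIs came from 1 cell. Lymphatic endothelial cells held more of it, with 529.97 CPM in the SAH library and 171 CPM in the sham library, and its share of UMIs from free RNA was not tested. Serpina3n, a protease inhibitor gene on chromosome 12 from 104406729 to 104414329, plus strand, had 795 CPM in SAH cells and 144 CPM in sham cells, 5.53-fold (4.16 to 7.45). A Serpina3n UMI was found in 85.7% of SAH cells and 33.3% of sham cells. After thinning the shares were 72.9% and 17.4%, against 15.6% and 5.51% of blood endothelial cells. Saa1 had 35 UMIs in SAH cells and 0 in sham cells, at least 16.2-fold higher against a floor of 3 UMIs over the sham cells. All 35 lay in 9 cells, with 48.6% in one of them, so nothing is left of it without the 10 richest cells. Ceruloplasmin, encoded by Cp and named after its value was seen, had 782 CPM in SAH cells and 572 CPM in sham cells, 1.37-fold.

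The promoters of Saa3 and Serpina3n, acute phase genes that were both found in most SAH cells, are shown with the same motifs in capitals.
Saa3 (chr7:46715677-46715926, minus strand): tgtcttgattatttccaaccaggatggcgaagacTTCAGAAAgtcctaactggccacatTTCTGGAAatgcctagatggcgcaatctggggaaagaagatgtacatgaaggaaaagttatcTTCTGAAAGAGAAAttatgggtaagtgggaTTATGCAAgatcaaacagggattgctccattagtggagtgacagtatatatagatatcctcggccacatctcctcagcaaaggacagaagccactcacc
Serpina3n (chr12:104406458-104406707, plus strand): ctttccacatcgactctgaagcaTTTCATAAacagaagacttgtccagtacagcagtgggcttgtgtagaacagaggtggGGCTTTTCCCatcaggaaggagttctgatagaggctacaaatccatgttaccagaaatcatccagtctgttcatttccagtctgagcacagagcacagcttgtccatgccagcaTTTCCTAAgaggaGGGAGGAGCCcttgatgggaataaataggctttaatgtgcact
The Saa3 window held C/EBP matches that began 216, 191, 129 and 99 bases before the start and a match to the interferon letters at 125 bases, which overlapped the third of them. The Serpina3n window held C/EBP matches at 227 and 56 bases and NF-kB matches at 170.0 and 43 bases. Cebpb, which encodes the factor C/EBP-beta, was lower in SAH cells at 252 CPM, against 794 CPM in sham cells (0.317-fold, 0.244 to 0.408).

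**Figure D3:**
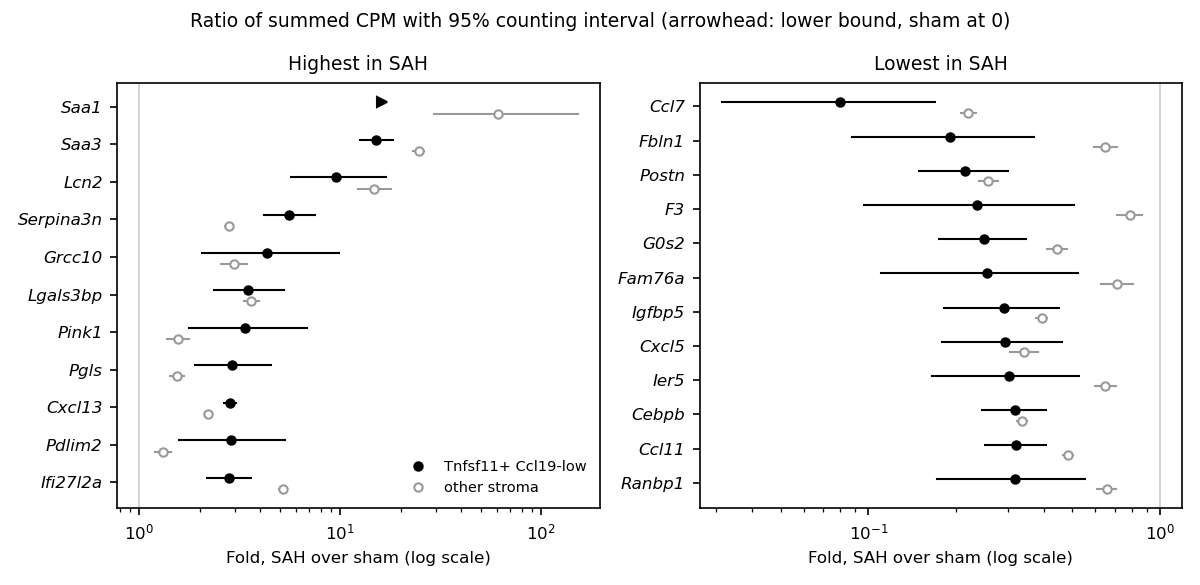
Ratio of SAH to sham CPM (log scale) for the highest and lowest named genes in Tnfsf11-positive Ccl19-low cells (black) and in all other stroma (grey, open), with 95% counting intervals and an arrowhead for the lower bound of Saa1. Both populations lay on the same side of 1 for each gene shown.

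Interferon-stimulated genes were higher in SAH cells as a group. Of 32 with at least 10 UMIs, 21 were at least 1.5-fold higher and 1 lower, with a median log2 fold of 0.88, beside 0.89 for the same genes in other stroma. All genes together had 15.8% that much higher and 24.0% that much lower. Irf7, the transcription factor that amplifies type I interferon, had 75.3 CPM in SAH cells and 2.36 CPM in sham cells, from 23 UMIs and 1 UMI, a ratio of 31.9 with an interval of 5.19 to 1316. After thinning, an Irf7 UMI was found in 14.6% of SAH cells and 0% of sham cells, against 53.8% and 19.6% of blood endothelial cells, so free RNA can contribute to these few UMIs and its part was not tested. Lgals3bp, a secreted galectin-binding glycoprotein, had 304 CPM in SAH cells and 87.2 CPM in sham cells, 3.49-fold (2.36 to 5.26). Ifi27l2a, a small membrane protein gene, had 645 CPM in SAH cells and 231 CPM in sham cells, 2.79-fold, but 1 sham cell held 69.4% of its group's UMIs. Igtp, an interferon-induced GTPase gene, had 75.3 CPM in SAH cells and 23.6 CPM in sham cells, 3.19-fold (1.46 to 7.52). Irf1 and Ifi35 went the other way in value, each with 42.5 CPM in SAH cells and 63.6 CPM in sham cells, and their intervals (0.317 to 1.34) included 1.

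Of 7 genes of the interferon receptor and ligand list with at least 10 UMIs, 0 were 1.5-fold higher and 3 were lower, counts too small to set against the shares over all genes of 15.8% higher and 24.0% lower. Ifnar2, a chain of the type I receptor, had 94.9 CPM in SAH cells and 165 CPM in sham cells. Ifnb1, Ifna4 and Ifng had 0 UMIs in both groups. In MHC class I presentation, 6 of 20 genes were at least 1.5-fold higher and 1 lower, with a median log2 fold of 0.45. H2-T23, a non-classical class I gene, had 344 CPM in SAH cells and 137 CPM in sham cells, 2.51-fold (1.81 to 3.53). The proteasome activator Psme1 had 245 and 144 CPM, and the immunoproteasome subunit Psmb10 had 167 and 101 CPM. The classical gene H2-K1 was not among them, with 1312 CPM in SAH cells and 1757 CPM in sham cells. Reads of class I genes can be shared with near-identical relatives.

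The list of NF-kB inflammatory targets, which holds several chemokines, was more often lower in SAH cells. Of 14 NF-kB inflammatory target genes with at least 10 UMIs, 7 were at least 1.5-fold lower in SAH cells and 2 higher, Saa3 and Lcn2. The shares over all genes were 24.0% lower and 15.8% higher. Ccl7, a monocyte chemoattractant, had 22.9 CPM in SAH cells and 287 CPM in sham cells, 0.0797-fold (0.0314 to 0.169), with 34.4% of the 122 sham UMIs in 1 cell. Cxcl1, a neutrophil chemoattractant, had 576 CPM in SAH cells and 1270 CPM in sham cells, 0.454-fold (0.380 to 0.539). Cxcl5 had 75.3 CPM in SAH cells and 257 CPM in sham cells. The median log2 fold of the list was -0.63, beside -0.86 in other stroma, but it was 0.10 under the stricter cell filter of 1000 genes and 5% mitochondrial UMIs, so its direction depends on the filter. Ccl11, an eosinophil chemoattractant of fibroblasts, had 281 CPM in SAH cells and 876 CPM in sham cells, 0.321-fold (0.251 to 0.407), and a UMI in 63.3% of SAH cells and 87.8% of sham cells. The constitutive chemokine Cxcl12 had 6893 CPM in SAH cells and 9404 CPM in sham cells. Cxcl10, an interferon-induced chemokine, had 314 CPM in SAH cells and 125 CPM in sham cells, with 69.8% of the SAH UMIs in 1 cell, and without the 10 richest cells of each library its log2 fold was -2.19.

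**Figure D4:**
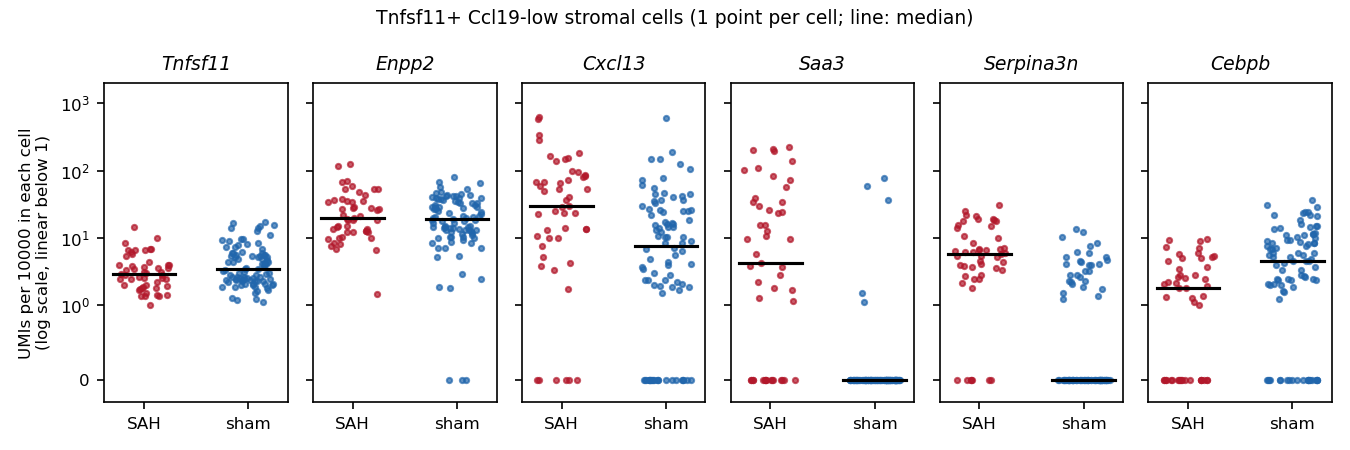
UMIs per 10000 in each Tnfsf11-positive Ccl19-low cell (log scale, linear below 1) for 6 genes, in 49 SAH cells (red, left) and 90 sham cells (blue, right), with the median as a line. Tnfsf11 and Enpp2 overlapped between the groups, whereas a Saa3 UMI was present in 33 SAH cells and 5 sham cells.

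Immediate early genes, which respond within minutes to stress and to tissue handling, were lower in SAH cells. Of 24 with at least 10 UMIs, 13 were at least 1.5-fold lower and 1 higher, with a median log2 fold of -0.73, beside -0.59 in other stroma. The shares over all genes were 24.0% lower and 15.8% higher. Jund, an AP-1 subunit, had 1263 CPM in SAH cells and 2841 CPM in sham cells, 0.445-fold (0.395 to 0.499). Ier5 had 52.4 CPM in SAH cells and 172 CPM in sham cells, and Fosl2 had 49.1 and 120.1 CPM. Ier3 was the exception, with 308 CPM in SAH cells and 198 CPM in sham cells. Among 11 genes of the glucocorticoid response and metallothioneins 4 were lower, where 24.0% of all genes were, including the clock gene Per1 (58.9 CPM in SAH cells and 137 CPM in sham cells) and the leucine zipper gene Tsc22d3 (55.6 and 104 CPM), and Angptl4 was higher (179.9 and 70.7 CPM). The part of handling time or dissociation in these values cannot be told apart from the operation, since each group is 1 library.

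Fibrillar matrix genes were more often lower than higher in SAH cells. Of 32 fibrillar collagen and conduit matrix genes with at least 10 UMIs, 13 were at least 1.5-fold lower in SAH cells and 1 higher, where over all genes 24.0% were lower and 15.8% higher, with a median log2 fold of -0.38, beside -0.30 in other stroma. Postn, the matricellular protein periostin, had 128 CPM in SAH cells and 596 CPM in sham cells, 0.214-fold (0.149 to 0.301). Fbln1, an elastic fibre protein gene, had 32.7 CPM in SAH cells and 172 CPM in sham cells. Fibronectin was lower by the values given before. Acta2, smooth muscle actin, had 19.6 CPM in SAH cells and 320.4 CPM in sham cells, with 6 and 136 UMIs, and Tagln had 62.2 and 289.7 CPM. Mural cells held 8306 CPM of Acta2 in the SAH library and 7803 CPM in the sham library, and the part of their free RNA in these values was not tested. Of 12 basement membrane genes 3 were higher and 4 lower, near the shares over all genes. The collagen IV genes Col4a1 and Col4a2 were the higher ones with most UMIs, at 618 and 357 CPM in SAH cells against 363 and 186 CPM in sham cells.

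Genes of haem, iron and redox handling were more often higher than lower in SAH cells. Of 21 with at least 10 UMIs, 10 were at least 1.5-fold higher in SAH cells and 1 lower, with a median log2 fold of 0.50, beside 0.32 in other stroma. Over all genes 15.8% were that much higher and 24.0% that much lower. The erythroid markers moved with it, at 27953 CPM in SAH cells and 14.1 CPM in sham cells, but without the 2 haemoglobin-rich cells the median was 0.49. With cells thinned to 2000 UMIs it was 0.14. Gpx3, a secreted glutathione peroxidase, had 889.9 CPM in SAH cells and 342 CPM in sham cells, 2.61-fold (2.12 to 3.21). Xdh, which encodes xanthine dehydrogenase, had 101 CPM in SAH cells and 47.1 CPM in sham cells, and Hmox2, the constitutive haem oxygenase, had 118 and 63.6 CPM. Hmox1, the inducible haem oxygenase, was the gene called lower, named after its value was seen, with only 4 UMIs in SAH cells and 10 in sham cells and an interval of 0.127 to 1.93. Of 10 complement genes 2 were higher and 0 lower, the higher share being near the 15.8% over all genes. Clu, encoding clusterin, had 3759 CPM in SAH cells and 1705 CPM in sham cells, and Cfb, encoding factor B, had 108 and 54.2 CPM.

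**Figure D5:**
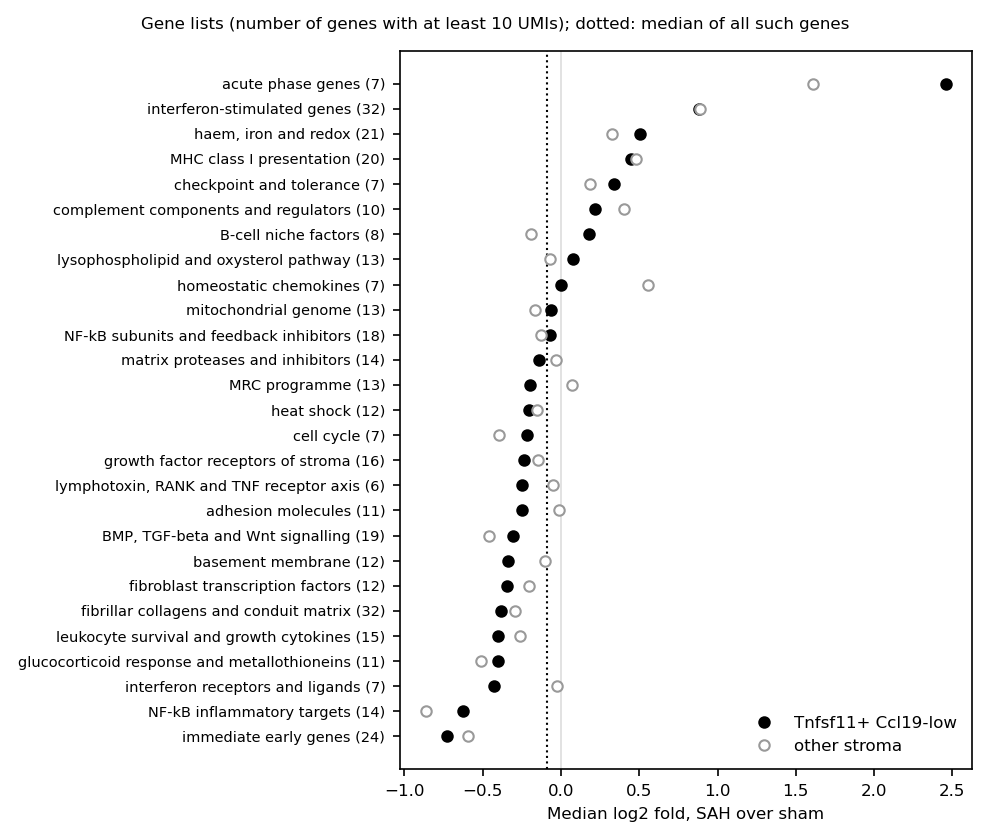
Median log2 fold of SAH over sham for each gene list with at least 5 genes of 10 or more UMIs, in Tnfsf11-positive Ccl19-low cells (black) and in all other stroma (grey, open), with the median of all 7386 such genes as a dotted line at -0.09. Acute phase and interferon-stimulated genes lay highest in both populations, at 2.46 and 0.88 in the Ccl19-low cells, and immediate early genes lowest in the Ccl19-low cells at -0.73.

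Several of the highest genes were higher in blood endothelial cells of the SAH library as well. The folds there were 24.1 for Saa3, 4.62 for Lcn2, 3.02 for Ifi27l2a, 2.26 for Cxcl13, 2.20 for Serpina3n and 2.02 for Lgals3bp. Pgls and Pdlim2 differed less there, at 1.23- and 1.21-fold. Grcc10 had 101 CPM in SAH cells and 23.6 CPM in sham cells, beside 96.2 and 32.4 CPM in blood endothelial cells of the SAH and sham libraries. Pink1, Pgls and Pdlim2 were also among the 12 highest, at 2.85- to 3.37-fold. The remaining lowest genes were F3, which encodes tissue factor, the lipolysis inhibitor gene G0s2, Fam76a, Igfbp5 and Ranbp1, at 0.236- to 0.317-fold.

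Counts in signalling lists of the reticular niche are given as values only, beside the shares over all genes of 15.8% higher and 24.0% lower. Of 18 NF-kB subunits and feedback inhibitors 2 were at least 1.5-fold higher and 3 lower, with a median log2 fold of -0.07, which turned to 0.05 with TMM factors. Nfkbia, the NF-kB inhibitor, had 870.3 CPM in SAH cells and 1451 CPM in sham cells. Of 19 BMP, TGF-beta and Wnt genes 4 were higher and 8 lower, among them Tgfbi (121 CPM in SAH cells and 285 CPM in sham cells) and the BMP antagonist Chrdl1 (91.6 and 184 CPM). Of 15 cytokines of leukocyte survival and growth 2 were higher and 4 lower, with Igf1 at 173 CPM in SAH cells and 297 CPM in sham cells. In the lysophospholipid pathway around Enpp2, 2 of 13 genes were higher and 1 lower, the phosphatase gene Plpp3 with 114.5 CPM in SAH cells and 268.5 CPM in sham cells.

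Genes that were over 10 times higher in endothelial, mural or B cells can come in part from free RNA, which was not tested. Fabp4, a fatty acid carrier of endothelium, had 193 CPM in SAH cells and 87.2 CPM in sham cells, beside 3728 and 2643 CPM in blood endothelial cells. Lrg1 had 206 CPM in SAH cells and 101 CPM in sham cells, beside 1400.4 and 1237 CPM. Of the 59 Fabp4 UMIs in SAH cells, 59.3% came from 1 cell. Without the 10 richest cells of each library its log2 fold was 0.26, beside 1.14 with all cells. The Fabp4 difference turned round with 2 or more Tnfsf11 UMIs required.

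Levels also varied among the cells of one library. The 23 SAH cells with at least 2 Tnfsf11 UMIs had 13703 CPM of Cxcl13, and the 26 SAH cells with 1 Tnfsf11 UMI had 3950.0 CPM. Of the 2433 Cxcl13 UMIs in those 23 cells, 876 came from 1 cell. In the sham library the same division gave 3633 CPM in 39 cells and 3193 CPM in 51 cells. The 6 SAH cells with no Cxcl13 UMI had 110.3 CPM of Saa3, and the 43 SAH cells with Cxcl13 had 4812 CPM. Enpp2 followed the same division, with 1103 CPM in SAH cells without Cxcl13 and 3081 CPM in those with it, and with 1309 CPM in the 22 sham cells without Cxcl13 and 2701 CPM in the 68 with it. The 6 SAH cells without Cxcl13 included 1 haemoglobin-rich cell, which held 6796 of their 27193 UMIs. Haemoglobin took 66.9% of the UMIs of that cell, which lowers the CPM of other genes in these 6 cells. Ptn stood at 940.4 CPM in sham cells without Cxcl13 and 1307 CPM in those with it. The median depths of cells with 1 and with at least 2 Tnfsf11 UMIs were 5111 and 7659 UMIs in the SAH library and 4193 and 4838 UMIs in the sham library, and the part of depth was not tested.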

How the data were processed

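The authors deposited UMI counts, not normalized, for 27998 gene entries in each cell barcode, made with Cell Ranger 5.0 and STAR on build mm10, per the submitters' processing notes, which also name Seurat 3.0.2. Per the labels, molecules were tagged at the 5′ end. Counts of entries with the same gene symbol were summed. The members and the gene lists were chosen with earlier results of these data known. Members and other classes were set by raw counts, and predicted doublets were kept in the main values. Scrublet through scanpy 1.11.5 called 1 SAH and 0 sham cells of the 139.

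UMIs were summed per class and library and divided by the class total. Folds are SAH over sham with exact conditional binomial 95% intervals, and shares have Clopper-Pearson intervals. Gene coordinates are from GENCODE on mm10. The summing and intervals were tested on simulated counts. Genes were named as the 12 highest and 12 lowest log2 folds in members that reached 100 CPM in either library (ranked after adding 0.5 counts), if the direction held without the 10 richest cells of each library (for Saa1 only through the added counts, since no UMI was left), and the 20 highest and 10 lowest ratios to other stroma. Ribosomal, mitochondrial, immunoglobulin, T-cell receptor, haemoglobin and predicted genes were left out, and genes over 10 times higher in endothelial, mural, B or T cells were set apart. In lists, up to 4 genes in each direction at 50 CPM or more were named. Some genes that these rules pick are not reported here. Medians and counts of lists use genes with at least 10 UMIs. Alternatives changed the cell filter, doublets, thresholds, depth, scaling (edgeR 4.0.16 TMM) and level minimum.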

Additional observations from a re-analysis of the deposited data

Results flagged for a closer look

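In some of the genes reported here the Tnfsf11-positive Ccl19-low cells and the other stroma moved in opposite directions between the libraries, with both counting intervals beyond 1. No share over all genes is given beside them, so their number is not read as a result. The difference between the populations was not tested. The class II genes Cd74 and H2-Ab1 were higher in SAH members, with log2 folds of 2.00 and 1.18, and lower in other stroma, with -0.67 and -0.48. Cd74 had 154 CPM in SAH members and 37.7 CPM in sham members, from 47 and 16 UMIs, and is over 10 times higher in B cells of the same library. Tnfsf11-positive stroma with at least 3 Ccl19 UMIs was also higher in Cd74 after SAH, at 124 CPM against 96.8 CPM (1.28-fold, 1.04 to 1.57). Stroma without Tnfsf11 and under 3 Ccl19 UMIs was lower, at 95.4 CPM against 459 CPM. The Cd74 rise is therefore not particular to the members. Id1, a BMP target, and the co-chaperone gene Dnajb1 had log2 folds of 1.19 and 0.70 in members and -0.48 and -0.31 in other stroma. The chemokine gene Cxcl14 had a log2 fold of -3.82 in members, from 1 SAH UMI and 29 sham UMIs, and 0.72 in other stroma. Prelp had -1.73 in members and 0.35 in other stroma. Small differences of opposite sign were found for Lepr (-0.25 and 0.13), Jun (-0.26 and 0.11) and Dcn, part of the choice (-0.13 and 0.12). Without the 10 cells richest in the gene in each library, the log2 folds of Id1 and Dnajb1 in members were -0.92 and -1.11.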

How the results depend on the processing

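No paired analysis was possible because each group is 1 library. Among stroma, the share of these cells after SAH divided by that after the sham operation was 0.511 and moved to 0.890 without a Ccl19 limit. The 400 higher and 690 lower genes became 221 and 312 without that limit, 1092 and 1624 at a minimum of 20 CPM, 111 and 100 at 200 CPM, and 2682 and 3747 with no minimum. The higher count alone moved to 918 with thinned cells, 679 with mitochondrial and ribosomal genes out of the totals and 622 with TMM factors. Against other stroma, 40 higher and 47 lower genes became 20 and 30 without the Ccl19 limit. The median of the NF-kB inflammatory targets turned to 0.10 under the stricter cell filter. Fabp4 turned to -1.04 with at least 2 Tnfsf11 UMIs and to -2.68 with the rule on thinned counts, and Prelp to 0.13 without the Ccl19 limit. The alternatives without or with a scaled Ccl19 limit, and without the 2 haemoglobin-rich cells, were chosen after seeing the data. Depth limits Madcam1, Hmox1 and other genes of few UMIs.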
